A study of Mus musculus with 8 samples.

Results

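In natural killer (NK) cells from mice with an intact *Ccl5* locus (*Wt*) or with the *Ccl5* ΔPE/ΔPE genotype (KO), 9 genes had been listed as near 0 reads in one genotype and counted in the other: *Gm15610*, *Gm6916*, *Gm5526*, *Tbc1d4*, *Greb1l*, *Ston2*, *Napb*, *Tex15* and *Rnase4*. They were selected on their read counts in these same libraries, so their difference between genotypes is a description with no test. They are 9 of the 48321 gene symbols listed, of which 21508 had a read in any library. 6 of them were counted in KO and 3 in *Wt*. Not all of them met that description in both organs. *Gm5526* had all but 1 of its reads in 2 of the 4 *Wt* libraries, *Tex15* was near the floor of 3 reads in spleen *Wt*, and *Rnase4* had 1 read in one of the spleen KO libraries.

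RNA was sequenced from CD45+ TCRb- NK1.1+ cells freshly sorted from lung and spleen of C57/Bl6 mice, in 8 libraries, 2 for each of the 4 combinations of organ and genotype. KO mice carry a homozygous deletion of the proximal enhancer of *Ccl5*, *Ccl5-PE*, made by genome editing with a pair of guide RNAs, and neither genotype was treated. Juvenile to adult mice of both sexes were used in the study, and the sources used here do not give the sex and age behind each library, whether a library holds 1 mouse or several, or how many founders the KO line has, so p-values measure the spread between libraries, which may be technical. *Ccl5* itself, which marks the genotype, was at 18899 ± 825 CPM (read counts scaled to library size by TMM; SD, n = 2) in *Wt* against 3087 ± 143 in KO in the lung, and at 16141 ± 716 against 2550 ± 172 in the spleen.

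Between 3132963 and 26482366 reads were counted on genes per library, so the floor of 3 reads lay between 0.113 and 0.958 CPM. The deepest library was spleen KO 2 and the shallowest spleen KO 1, which puts both limits in the genotype that counted most of the 9 genes. The 10 NK markers summed to 50871 to 52404 CPM in lung *Wt* and 40813 to 41201 in lung KO. In spleen they summed to 37300 to 37884 in *Wt* and 48131 to 50431 in KO. These sums, carried by *Gzma* and *Nkg7*, stood apart by genotype in opposite directions in the organs. *Tbx21*, *Il2rb* and *Prf1* went the other way, higher in lung KO and lower in spleen KO, and *Eomes* overlapped in lung. *Tbx21* was at 216 and 221 CPM in lung *Wt* against 477 and 479 in lung KO. In spleen it was at 341 and 331 in *Wt* against 150 and 147 in KO. *Xist* was read in all 8 libraries, and the 4 Y-linked genes checked had 1 read in all. In such bulk samples, fewer cells that use a gene and less RNA per cell cannot be told apart.

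A gene with reads in one mouse line and none in another can reflect regulation, but mice of separate lines also carry passenger variants, which are inherited with or beside an engineered allele. Retrocopies are a further case. They arise when an mRNA is reverse transcribed and inserted elsewhere in the genome, so a short read of the parent mRNA can align to the copy if it carries the copy's bases. A count of reads on such a copy depends on how the aligner divides reads between nearly identical sequences.

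3 of the 9 genes are annotated as processed pseudogenes, that is, retrocopies. *Gm15610* (chr5:8971948-8972142, plus strand, GRCm38) and *Gm6916* (chr7:128314784-128340805, plus strand) are both copies of *Tma7*, which encodes a small translation machinery-associated protein, and *Gm5526* (chr1:45857332-45857754, minus strand) is a copy of *Myl6*, the essential light chain of non-muscle myosin. The sequences are shown because, within the stretch that a copy and its parent have in common, the differing bases are the ones by which a read can be assigned to either. They were taken from GENCODE transcripts of GRCm38, run 5′ to 3′, and capitals mark the bases at which a copy and *Tma7* differ (in *Tma7*, at any of the 3 copies). Another copy, *Tma7-ps* (chr1:171711088-171711282, plus strand), which was read in every library, is given for comparison. The *Gm6916* stretch lies at chr7:128340467-128340661, and the *Tma7* stretch is spread over 4 exons within chr9:109078391-109082342 on the minus strand.
Tma7: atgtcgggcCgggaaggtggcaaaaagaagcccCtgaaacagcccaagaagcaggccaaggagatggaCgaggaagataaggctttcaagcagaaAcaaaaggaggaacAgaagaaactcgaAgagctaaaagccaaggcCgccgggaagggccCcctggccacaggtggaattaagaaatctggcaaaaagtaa
Gm15610: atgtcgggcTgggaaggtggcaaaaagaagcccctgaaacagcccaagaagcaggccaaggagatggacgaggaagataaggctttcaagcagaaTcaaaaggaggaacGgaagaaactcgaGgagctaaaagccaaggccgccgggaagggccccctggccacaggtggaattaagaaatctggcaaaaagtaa
Gm6916: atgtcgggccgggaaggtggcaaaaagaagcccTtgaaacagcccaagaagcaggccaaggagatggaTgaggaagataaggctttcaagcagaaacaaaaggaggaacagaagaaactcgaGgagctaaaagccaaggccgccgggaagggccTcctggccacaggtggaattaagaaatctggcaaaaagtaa
Tma7-ps: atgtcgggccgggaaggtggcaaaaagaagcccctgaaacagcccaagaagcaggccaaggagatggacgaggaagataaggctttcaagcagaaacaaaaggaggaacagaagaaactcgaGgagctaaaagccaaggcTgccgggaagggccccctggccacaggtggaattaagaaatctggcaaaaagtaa

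Over these 195 bases, *Gm15610* differed from *Tma7* at 4 positions, *Gm6916* at 4 and *Tma7-ps* at 2. Counted from the first base of each stretch, with the base of *Tma7* first, the changes were C10T, A96T, A110G and A123G in *Gm15610*, C34T, C69T, A123G and C155T in *Gm6916*, and A123G and C141T in *Tma7-ps*. A123G was common to all 3 copies, so 3 changes in *Gm15610* and 3 in *Gm6916* were held by neither of the other copies. Reads were 50 bases long. Of the 146 windows of 50 bases in *Gm15610*, 62 occur in a transcript of another gene, 59 of them in *Tma7*. The other 84 were found in no transcript of another gene. Windows were searched for in annotated transcripts only, not in the rest of the genome. In *Gm6916*, which also has a longer transcript, 82 of 779 windows were shared, 64 of them with *Tma7*. Most of its windows thus lie outside the stretch shown and were found in no transcript of another gene.

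For *Gm5526* and *Myl6*, the stretch from 30 bases before the first to 30 after the last differing base is shown, at chr1:45857394-45857662 on the minus strand and over 3 exons within chr10:128492092-128492651 on the minus strand.
Myl6: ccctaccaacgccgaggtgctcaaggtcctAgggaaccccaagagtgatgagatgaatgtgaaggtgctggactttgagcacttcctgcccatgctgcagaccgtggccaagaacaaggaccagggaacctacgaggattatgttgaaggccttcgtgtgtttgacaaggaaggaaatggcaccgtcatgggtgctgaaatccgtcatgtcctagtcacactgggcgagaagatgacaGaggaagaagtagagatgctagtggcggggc
Gm5526: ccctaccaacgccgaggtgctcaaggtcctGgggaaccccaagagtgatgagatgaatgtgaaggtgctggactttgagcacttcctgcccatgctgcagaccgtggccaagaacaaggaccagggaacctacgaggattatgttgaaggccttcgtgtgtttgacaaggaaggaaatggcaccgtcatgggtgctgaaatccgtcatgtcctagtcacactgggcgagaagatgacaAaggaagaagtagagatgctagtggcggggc

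*Gm5526* matched *Myl6* over 407 bases with 2 differences, which are A123G and G331A when counted from the first base of the annotated copy. *Gm10080*, a further copy of *Myl6*, has the change of A123G at the same base of *Myl6*, as A141G in its own numbering. Of these 2 copies, only *Gm5526* holds G331A. Of its 374 windows of 50 bases, 308 were shared with other genes, 258 of them with *Myl6*. Only 66 were found in no transcript of another gene. It is the member with the largest share of windows in common with other transcripts, at 82.4%, against 42.5% for *Gm15610* and 10.5% for *Gm6916*. In *Tbc1d4*, *Greb1l* and *Tex15* no window was shared, in *Napb* 1 of 7095 and in *Ston2* 44 of 12389. *Rnase4* shared 123 of 1587 windows with *Ang*, whose exons overlap its own by 219 bases on the same strand.

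*Gm15610* had no read in any of the 4 *Wt* libraries. It had 35 and 57 reads in lung KO and 27 and 227 in spleen KO, or 7.15 and 7.74 CPM and 8.80 and 8.68 CPM. The KO libraries lay close together despite the difference in depth, and every one stood above all *Wt* libraries. Against a floor of 3 reads over the summed *Wt* libraries of an organ, *Gm15610* was at least 29.8-fold higher in lung KO and at least 36.5-fold higher in spleen KO. The copy lies inside an intron of *Crot*, a peroxisomal carnitine acyltransferase gene on the opposite strand, and shares no exon base with it. *Crot* was at 236 ± 8.29 CPM (SD, n = 2) in lung *Wt* and 248 ± 2.22 in lung KO, a log2 fold change of 0.07 ± 0.05 (SE, adjusted p = 0.25, edgeR's quasi-likelihood test), and its log2 fold change in spleen was 0.15 ± 0.04 (adjusted p = 0.0038, same test).

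*Gm6916* was likewise without a read in all *Wt* libraries. Its counts were 22 and 30 in lung KO and 17 and 157 in spleen KO (4.49, 4.07, 5.54 and 6.0 CPM). These are at least 16.9-fold and at least 25.0-fold above the floor of the *Wt* libraries in lung and spleen. Both *Tma7* copies were thus read in the same 4 libraries, and *Gm6916* had between 0.526 and 0.692 reads for each read of *Gm15610*.

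The parent *Tma7* was abundant in both genotypes. It had 1734 and 732 reads in *Wt* against 709 and 998 in KO in the lung, and 729 and 1439 against 682 and 5101 in the spleen. Reads on *Gm15610* made up 3.81% to 5.40% of the reads on *Gm15610* and *Tma7* in the 4 KO libraries. In the *Wt* libraries together they were 0 of 4634, where the floor of 3 reads would be a share of 0.0647%. For *Gm6916* the share was 2.43% to 3.01% in KO and again 0 of 4634 in *Wt*. Its exons hold 828 bases, most of them outside the stretch shown, and the counts do not show where its reads fell. The share of *Gm6916* is therefore not like for like with those of *Gm15610* and *Tma7-ps*, which hold 195 bases each. *Tma7-ps* was at 4.70% to 5.79% of the reads on itself and *Tma7* in *Wt* and at 4.45% to 6.73% in KO, so the genotypes overlapped for this copy. *Tma7* moved in opposite directions in the 2 organs, with a log2 fold change in KO of -0.55 ± 0.06 (SE, adjusted p = 2.2e-09) in lung and 0.22 ± 0.06 (adjusted p = 0.0013) in spleen by edgeR's quasi-likelihood test. The counts of the copies do not tell transcription of the copies from changes in the sequence of *Tma7* or of the copies in the KO line, and neither was tested.

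*Gm5526* had 88 reads in lung *Wt* 1 and 0 in lung *Wt* 2, and 0 reads in spleen *Wt* 1 and 331 in spleen *Wt* 2. KO libraries had 0 reads in lung and 0 and 1 in spleen. The reads therefore separated single libraries, not genotypes, and the groups overlapped at 0. Its share of the reads on *Gm5526* and *Myl6* was 2.03% in lung *Wt* 1 and 9.70% in spleen *Wt* 2. It was 0 of 1983 reads in lung *Wt* 2 and 0 of 1673 in spleen *Wt* 1, with exact 95% upper limits of 0.186% and 0.220%. *Gm10080*, another *Myl6* copy, was at 5.85% to 7.07% over all 8 libraries. Among all gene symbols, *Gm5526* was the only one with at least 10 reads in both of these libraries and at most 1 in each of the other 6. Of the sum over each group, the ratio of *Wt* to KO was at least 30.2 in lung and 769 (exact 95% interval 137 to 30449) in spleen, each resting on 1 library.

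**Figure D1:**
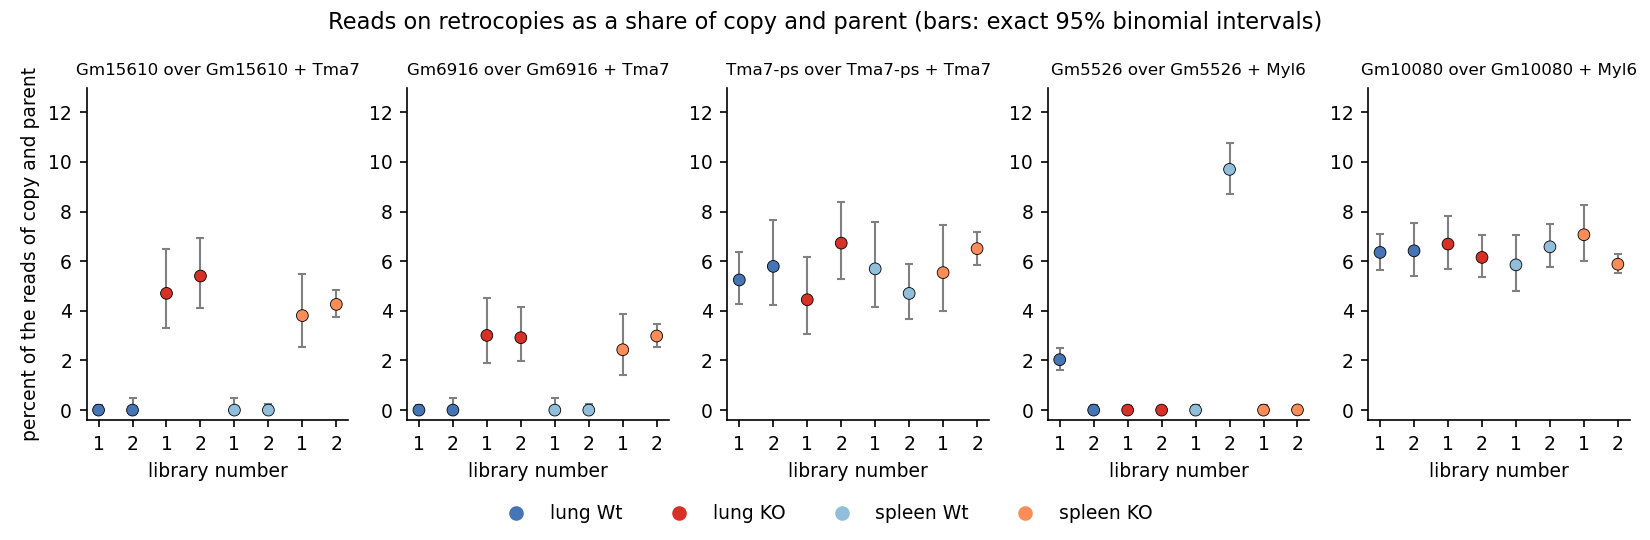
Percent of reads on a retrocopy among the reads on the copy and its parent, for each library (x axis, library number within its group; colours, groups; bars, exact 95% binomial intervals for counting error only). *Gm15610* and *Gm6916* were read in the 4 KO libraries alone, *Tma7-ps* and *Gm10080* at a similar share in all 8, and *Gm5526* in lung *Wt* 1 and spleen *Wt* 2. All reads of *Gm6916* are included, also any outside the stretch it has in common with *Tma7*.

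*Tbc1d4*, *Ston2* and *Napb* have roles in membrane traffic. TBC1D4 is a Rab GTPase-activating protein that restrains the movement of glucose transporters to the cell surface until Akt phosphorylates it. *Tbc1d4* (chr14:101442360-101609191, minus strand) had no read in *Wt*, 9 and 7 in lung KO and 6 and 57 in spleen KO (1.84, 0.95, 1.96 and 2.18 CPM). All KO libraries stood above all *Wt* libraries, on fewer than 10 reads in 3 of the 4. The ratio was at least 5.19 in lung and at least 9.04 in spleen.

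NAPB (beta-SNAP) is the SNAP protein known mainly from brain, and with NSF it takes SNARE complexes apart after membrane fusion. *Napb* (chr2:148693985-148732467, minus strand) had 9 and 13 reads in lung KO and 11 and 97 in spleen KO, against 0 and 0 in lung *Wt* and 0 and 1 in spleen *Wt*. In CPM, KO libraries were at 1.84 and 1.76 in lung and 3.58 and 3.71 in spleen, above every *Wt* library. The difference was at least 7.13-fold in lung and 46.5-fold (exact 95% interval 8.17 to 1854) in spleen.

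Stonin 2, an adaptor that sorts cargo into clathrin-coated vesicles, ran the other way. *Ston2* (chr12:91633009-91788387, minus strand) had 27 and 18 reads in lung *Wt* and 4 and 11 in spleen *Wt* (3.35, 4.65, 0.997 and 1.28 CPM), and 1 and 0 in lung KO and 0 and 0 in spleen KO. No KO library reached a *Wt* library. It was 46.3-fold higher in lung *Wt* (exact 95% interval 7.89 to 1868) and at least 11.6-fold higher in spleen *Wt*.

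*Greb1l* and *Tex15* are best known from development and the germ line. GREB1L is needed for kidney development, and TEX15 takes part in meiotic recombination and in piRNA-guided silencing of transposons in male germ cells. *Greb1l* (chr18:10325177-10562940, plus strand) had 13 and 22 reads in lung KO and 15 and 103 in spleen KO (2.65, 2.99, 4.89 and 3.94 CPM), and 1 read in spleen *Wt* 1 as its only read in *Wt*. The genotypes did not overlap, and the ratio was at least 11.3 in lung and 50.8 (exact 95% interval 8.95 to 2024) in spleen. *Tex15* (chr8:33516738-33585582, plus strand) had 23 and 13 reads in lung *Wt* (2.85 and 3.36 CPM), only 1 and 4 in spleen *Wt*, and none in KO. The 4 reads of the higher of the spleen libraries are near the floor of 3, so *Tex15* was clearly counted in lung *Wt* only, with ratios of at least 12.3 in lung and at least 3.87 in spleen.

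RNase 4 is a secreted ribonuclease whose gene shares its promoters with *Ang*, the gene of angiogenin. *Rnase4* (chr14:51091077-51106151, plus strand) had 11 and 16 reads in lung KO, 1 and 28 in spleen KO, 0 and 1 in lung *Wt* and none in spleen *Wt*. Its 1 read in spleen KO 1, the shallowest library, was 0.326 CPM, next to 0.259 CPM in lung *Wt* 2, so the difference in spleen rests on spleen KO 2. The ratio was 26.3 (exact 95% interval 4.33 to 1075) in lung and at least 4.16 in spleen. *Ang*, with which reads can be confused, had between 0 and 3 reads in a library.

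**Figure D2:**
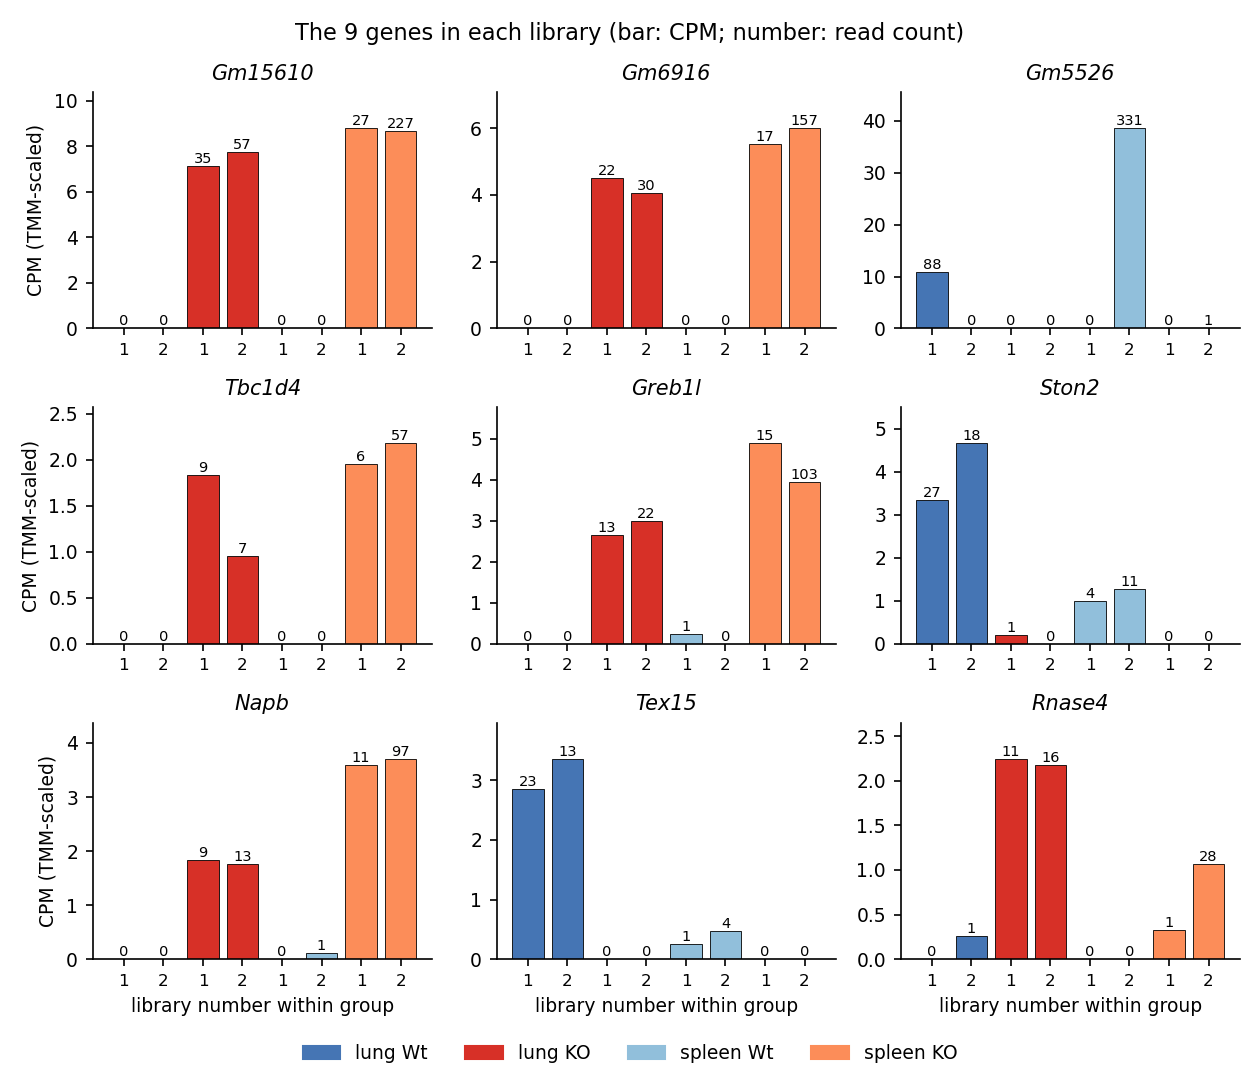
CPM (TMM-scaled, y axis from 0, scaled for each gene) of the 9 genes in each library, with the read count above each bar; x axis, library number within its group; colours, groups. *Gm15610*, *Gm6916*, *Tbc1d4*, *Greb1l*, *Napb* and *Rnase4* have bars in KO, *Ston2* and *Tex15* in *Wt*, and *Gm5526* in 1 lung and 1 spleen library of *Wt*.

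To place the 9 genes among all others, each gene's highest CPM in one genotype was set against its lowest CPM in the other, over all 8 libraries. Of 12744 genes with at least 40 reads summed over either genotype, 18 (0.141%) had a lowest value in one genotype over 10 times the highest in the other (any read being enough where the other was at 0), 17 of them counted in KO and 1 in *Wt*. *Gm15610* ranked 1 and *Gm6916* 2 among those counted in KO, and *Tbc1d4*, *Napb*, *Greb1l* and *Tex15* also passed. *Gm5526*, *Ston2* (ratio 4.88) and *Rnase4* (1.26) did not. Without spleen KO 2, the deepest library, 4 genes counted in KO met the limits, and without lung *Wt* 1 or spleen *Wt* 2 none counted in *Wt*. The same limits with organ in place of genotype gave 122 genes counted in lung and 23 in spleen. Just outside the limits lay *Fn3krp*, *D630030B08Rik* and *Lonrf1* toward KO, with ratios of 8.23, 6.21 and 4.74, and *Podnl1*, *Gm37283* and *Ccl5* toward *Wt*, with 9.52, 6.28 and 4.90.

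12 genes outside the 9 shared the pattern, all counted in KO. By the ratio of the lowest KO library to the highest *Wt* library (or 1 read of the deepest library where *Wt* was at 0), the leading 5 were *Ctla4*, *Asns*, *RP24-156K15.4*, *Pkia* and *Palld*. *Ctla4*, an inhibitory receptor of T cells, had 14 and 23 reads in lung KO and 5 and 36 in spleen KO, and *Asns*, which makes asparagine, had 14 and 16 and then 7 and 27, both with none in *Wt*. The 6 T cell markers summed to 43.9 to 46.8 CPM in lung *Wt*, 38.8 to 40.6 in lung KO, 155 to 157 in spleen *Wt* and 131 to 137 in spleen KO. *Cd3e* was lower in spleen KO (7.50 and 11.1 CPM) than in spleen *Wt* (31.9 and 32.4), *Cd3d* was higher in spleen KO (72.0 and 64.3 against 59.1 and 62.2), and *Cd4* had 5 and 7 reads in lung KO and none in lung *Wt*. The part of T cells in the reads on *Ctla4* was not tested. The counts of *Gm15610* and *Gm6916* exceeded those of these genes in every KO library. The 17 genes counted in KO do not lie in 1 region: the 16 with 1 annotated position are on 11 chromosomes, and none of these 16, nor any of the 9 genes, is on chromosome 11, where *Ccl5* and its deleted enhancer are.

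**Figure D3:**
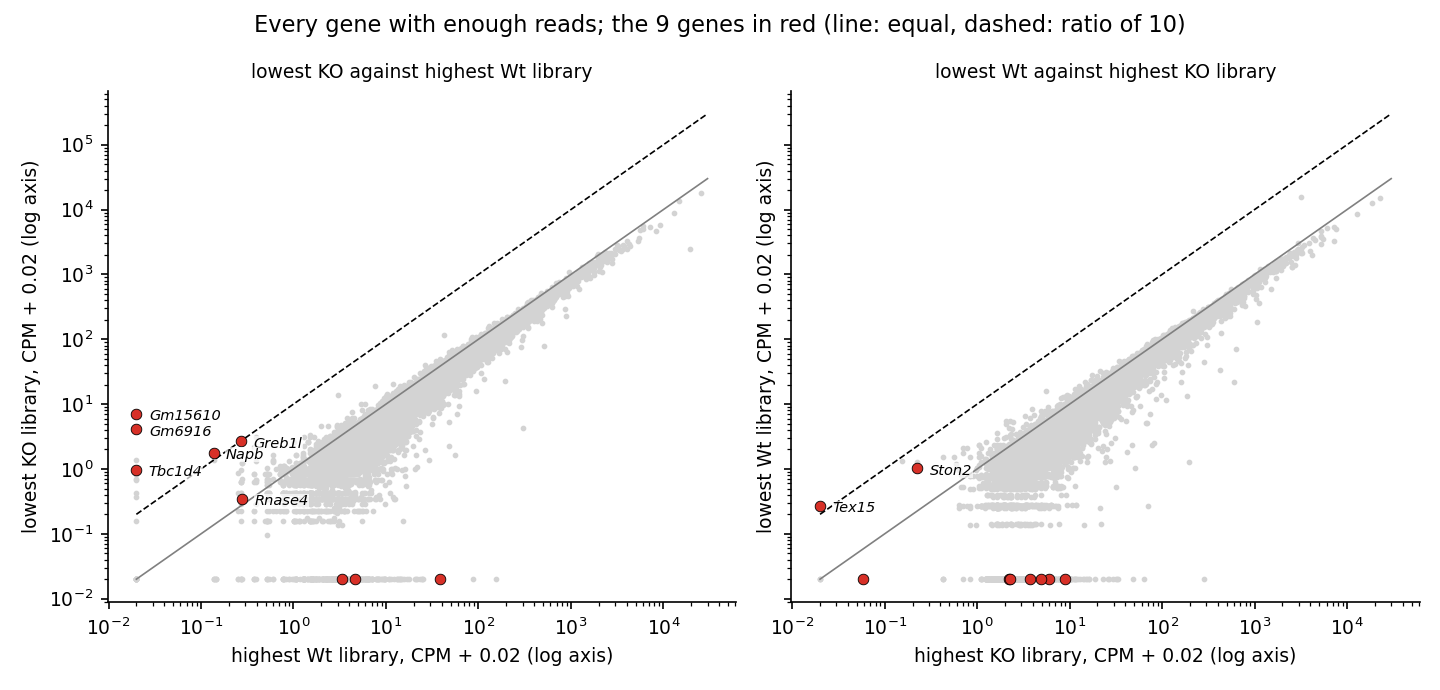
Each grey point is a gene with at least 40 reads summed over a genotype; the y axis is its lowest library of one genotype and the x axis its highest library of the other, in CPM plus 0.02 on log axes (left, lowest KO; right, lowest *Wt*). Of the 9 genes in red, *Gm15610*, *Gm6916*, *Tbc1d4*, *Napb* and *Greb1l* lie at or beyond the dashed line (a ratio of 10) on the left and *Tex15* on the right; the added 0.02 draws *Greb1l* onto the line, and the unlabelled red points at the bottom are members with a library at 0.

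*Greb1l* had others of the kind nearby. *Colec12*, 442.5 kb away, and *Abhd3*, 79.2 kb away, met the same limits. The 3 pairs among *Greb1l*, *Colec12* and *Abhd3* were the only pairs of genes counted in KO within 1 Mb of each other, among those with 1 annotated position. *Colec12*, a scavenger receptor gene, had 13 and 10 reads in lung KO and 3 and 21 in spleen KO, *Abhd3*, a phospholipase gene, had 3 and 3 and then 4 and 45, and neither had a read in *Wt*. The 3 nearest tested genes on each side of *Greb1l* were read in both genotypes, but genes with too few reads to be tested are not among them. *Esco1*, 3.57 kb from *Greb1l*, had 2031 and 1005 reads in lung *Wt* and 797 and 1152 in lung KO, and its log2 fold change was -0.68 ± 0.05 (SE, adjusted p = 2.3e-13, edgeR) in lung and -0.12 ± 0.05 (adjusted p = 0.037, edgeR) in spleen. *Rock1* was lower in KO in both organs (log2 fold changes -1.10 and -0.41) and *Usp14* and *Snrpd1* higher (0.35 and 0.30, 0.24 and 0.30). Whether the KO line carries another haplotype or variant at this or any of the other loci was not tested, since the count files hold no bases of reads.

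The surroundings of the 9 genes were described by the 3 nearest tested genes on each side of each, 54 in all at 1.04 to 6414 kb (median 145 kb), which the rule for the 9 genes did not use. In lung, 36 of the 54 passed edgeR's quasi-likelihood test at an adjusted p of 0.05, 15 higher and 21 lower in KO, where 55.6% of the 12595 genes tested passed. In spleen, 37 passed, 21 higher and 16 lower, where 57.1% of all genes passed. The median log2 fold change of the neighbours was -0.20 in lung and 0.09 in spleen, against 0.02 and 0.00 over all genes tested. DESeq2 called 23 in lung and 20 in spleen, where it called 35.8% and 33.1% of all genes. Of the 26 neighbours that passed in both organs, 14 moved the same way in both. The same count over all genes was 965 of 4367. None of the 54 met the limits of the on-and-off pattern, but genes with too few reads to be tested could not be among them. *Abhd3*, 79.2 kb from *Greb1l*, met the limits and was left out of the 54 because it was not tested. The count therefore does not show whether such genes lie near the 9.

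Among the neighbours, *Rnase6* had the highest log2 fold change that rests on reads in both genotypes, in lung and in spleen alike. It lies 17.8 kb from *Rnase4*, belongs to the same ribonuclease family, and had 3 and 3 reads (*Wt*) against 12 and 20 (KO) in the lung, and 13 and 28 against 27 and 241 in the spleen. In CPM, this was 0.574 ± 0.285 against 2.58 ± 0.187 in lung and 3.25 ± 0.0172 against 9.01 ± 0.294 in spleen (SD, n = 2). It rose in KO by 2.34 ± 0.51 (log2, SE, adjusted p = 0.00019) in lung and 1.49 ± 0.22 (adjusted p = 4.2e-07) in spleen by edgeR's test. *Rnase6* was thus higher in KO in both organs, as *Rnase4* was, but was also read in every *Wt* library. The 6 macrophage and monocyte markers, of which *Adgre1* had no read, summed to 33.0 to 36.7 CPM in lung *Wt* and 37.0 to 41.5 in lung KO. In spleen they summed to 20.6 to 20.9 in *Wt* and 27.0 to 27.7 in KO. *Lyz2* was higher in lung KO than in lung *Wt* (23.5 and 25.1 CPM against 12.2 and 15.8) and overlapped in spleen. *Cd68* was lower in lung KO (8.37 and 11.1 against 15.6 and 14.2) and higher in spleen KO (21.5 and 18.5 against 15.0 and 12.7). *Csf1r* overlapped in both organs. The part of macrophages and monocytes in the reads on *Rnase4* and *Rnase6* was not tested. The other neighbours of *Rnase4* that passed in both organs were *Ndrg2*, lower in KO at -0.82 and -0.77, and *Apex1* and *Mettl17*, which rose in lung and fell in spleen.

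Near *Gm6916*, *Bag3*, a co-chaperone gene 183 kb away, rose in KO by 2.27 in lung and 0.74 in spleen (log2), and *Tial1* fell by 0.38 and 0.23. *Tgfb1i1*, 59.1 kb away, had no read in *Wt* or in the spleen and 12 and 17 reads in lung KO, so its fitted fold change has no counted base. Near *Gm15610*, *Abcb1b*, *Tmem243* and *Dmtf1* fell in both organs, *Abcb1b* by 0.66 in each. Near *Tex15*, *Purg* fell by 1.27 in lung and 1.02 in spleen, on 5 to 8 reads in 3 of the 4 lung libraries, while *Wrn*, a DNA helicase gene, rose by 0.52 and 0.23. Near *Ston2*, *Gtf2a1* fell by 0.61 and 0.33, and the neighbours of *Tbc1d4*, *Napb* and *Gm5526* that passed did not move in 1 direction in both organs: 3 neighbours of *Tbc1d4* and 2 of *Napb* passed in both with opposite signs, and none of *Gm5526* passed in both.

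**Figure D4:**
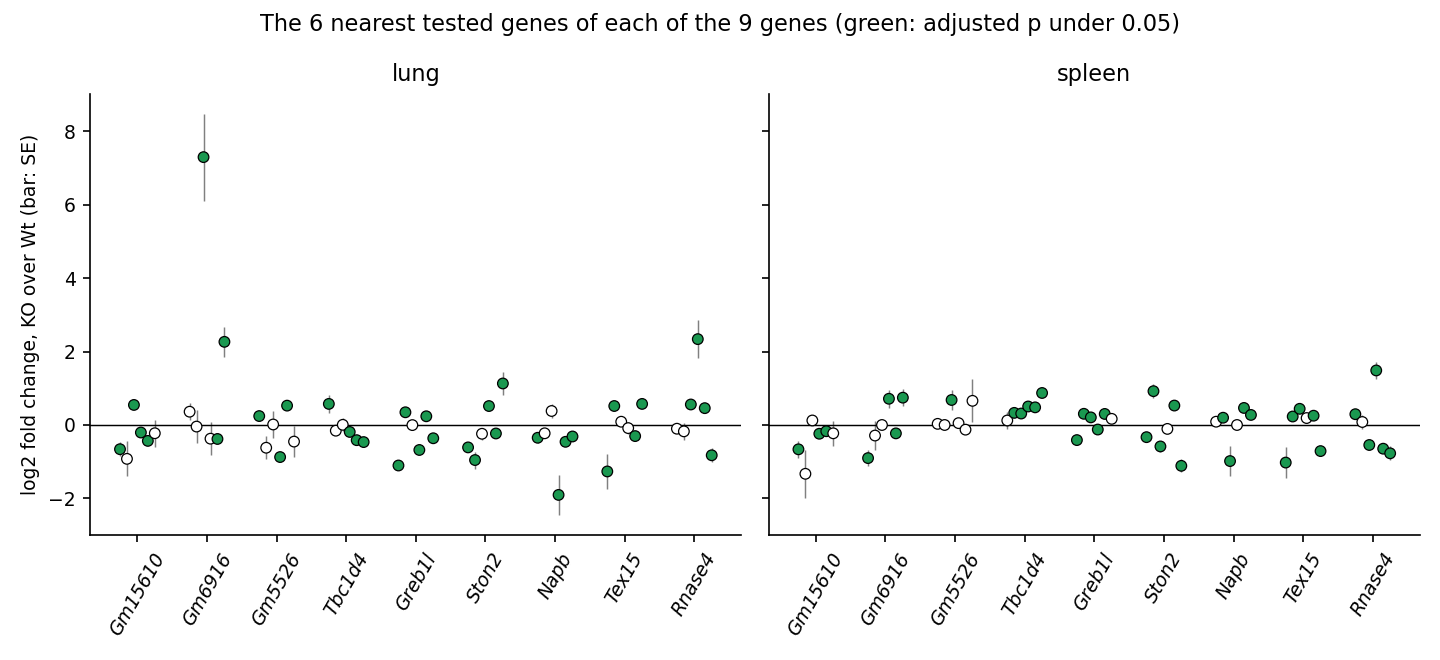
Log2 fold change of KO over *Wt* (y axis; bars, SE from edgeR) of the 6 nearest tested genes of each of the 9 genes, in lung (left) and spleen (right); green points passed at an adjusted p of 0.05. The highest point is *Tgfb1i1* in lung, whose *Wt* libraries hold no read, and *Rnase6* is the highest of the neighbours of *Rnase4* in both organs.

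Genes that work with the 9 were examined from lists of paralogues and partners, 63 of them in the files and 37 tested. In lung 29 of the 37 passed edgeR's test, 15 higher and 14 lower in KO, where 55.6% of all genes passed, and in spleen 28, 10 higher and 18 lower, where 57.1% of all genes passed. The median log2 fold changes were 0.06 and -0.11, against 0.02 and 0.00 over all genes tested. Of the 24 that passed in both organs, 19 had opposite signs in lung and spleen, as had 3402 of the 4367 that passed in both over all genes.

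Among partners of *Tbc1d4*, *Akt1*, *Akt2*, the glucose transporter genes *Slc2a1* and *Slc2a3* and *Rab10* rose in lung KO (0.63, 0.60, 0.74, 0.18 and 0.22 on the log2 scale) and fell in spleen KO (by 0.58, 0.81, 0.55, 0.94 and 0.54), and *Rab14* did the reverse. The paralogue *Tbc1d1* had 97 to 1045 reads in each library, with a log2 fold change of -0.07 (adjusted p = 0.64, edgeR) in lung and 0.39 (adjusted p = 0.0011) in spleen. *Slc2a4*, the muscle and fat transporter that TBC1D4 is known for, had no read in any library.

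The SNAP paralogues of *Napb* were read in every library at far higher counts. *Napa* had 464 to 3874 reads and *Napg* 173 to 1482. *Napa* rose by 0.19 in lung and fell by 0.25 in spleen, and *Napg* fell by 0.40 and 0.19. *Nsf* and the SNARE and docking genes *Stx11*, *Stxbp2* and *Vamp2* rose in lung (0.58, 0.88, 0.57 and 1.82) and fell in spleen (by 0.33, 0.77, 0.98 and 1.19), whereas *Stx4a*, *Stx7*, *Stx8*, *Vamp8* and *Vti1b* fell in lung and rose in spleen. *Stx11* and *Stxbp2* are known for the release of cytotoxic granules.

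For *Ston2*, the AP-2 adaptor subunit genes *Ap2a1*, *Ap2a2*, *Ap2b1* and *Ap2m1* fell in spleen KO by 0.70, 0.64, 0.24 and 0.32, and only *Ap2a2* passed in lung too, where it fell by 0.34. *Itsn1*, an endocytic scaffold gene, had 40 and 20 reads in lung *Wt* and 8 and 7 in lung KO, a fall of 2.03 ± 0.38 (log2, SE, adjusted p = 2.0e-05, edgeR), and did not pass in spleen (0.05, adjusted p = 0.91). *Itsn2* fell by 0.17 and 0.22. The paralogue *Ston1* had 3 and 1 reads in lung *Wt* and none elsewhere.

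Of 16 germ-cell and piRNA genes listed beside *Tex15*, 2 were tested and 11 had no read in any library. *Tdrkh*, a piRNA-trimming cofactor gene, rose in KO by 1.26 in lung and 0.51 in spleen, opposite to *Tex15*. *Ddx4*, a germ-cell helicase gene, had too few reads to be tested, with 13 and 10 (*Wt*) against 1 and 0 (KO) in the lung, and none against 0 and 1 in the spleen. *Ddx4* thus resembled *Tex15* in lung. *Tex11* had reads in lung KO alone (8 and 12). Of the 10 relatives of *Rnase4*, *Rnase6* and the ribonuclease inhibitor gene *Rnh1* were tested, and *Rnh1*, at 198 to 219 CPM in the group means, fell by 0.13 in lung. *Greb1*, the paralogue of *Greb1l*, had no read.

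The organs were also compared within the genotype that counts a gene. The genes were selected for reads in both organs in that genotype, the same reads as are compared here, which limits how far the organs could differ. The counts of calls are therefore not read against the shares over all genes. The p-values, here and for *Wt* below, describe genes so chosen and do not stand as independent tests. In KO, 2 of the 6 genes counted there passed edgeR's quasi-likelihood test, where 65.6% of all genes passed. *Napb* was at 1.80 ± 0.0518 CPM (SD, n = 2) in lung and 3.65 ± 0.0876 in spleen, a log2 fold change of lung over spleen of -1.03 ± 0.31 (SE, adjusted p = 0.0042, edgeR). *Rnase4* was at 2.21 ± 0.0526 CPM in lung and 0.698 ± 0.527 in spleen, a difference of 1.15 ± 0.41 (adjusted p = 0.014, edgeR). Both calls were lost without lung KO 2, where *Napb* had an adjusted p of 0.064 and *Rnase4* of 0.092 (edgeR), and *Napb* also without spleen KO 2 (0.16) and *Rnase4* without lung KO 1 (0.056). *Gm15610* (-0.21, adjusted p = 0.31), *Gm6916* (-0.48, 0.067), *Tbc1d4* (-0.71, 0.11) and *Greb1l* (-0.51, 0.11) did not pass, with SEs between 0.18 and 0.39. DESeq2, which called 44% of all genes, called none of the 6, and none had an unadjusted p under 0.05.

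In *Wt*, all 3 genes counted there passed with edgeR and 1, *Tex15*, with DESeq2, where 57% of all genes passed with edgeR and 38% with DESeq2. *Tex15* was at 3.11 ± 0.359 CPM in lung and 0.358 ± 0.154 in spleen, a log2 fold change of 2.88 ± 0.55 (SE, adjusted p = 3.2e-05, edgeR). *Ston2* was at 4.0 ± 0.922 and 1.14 ± 0.202 CPM, a log2 fold change of 1.66 ± 0.41 (adjusted p = 0.00077, edgeR). Both were thus read more in lung than in spleen in these libraries, and *Ston2* did not pass with DESeq2 (adjusted p = 0.063, DESeq2). The call for *Gm5526* (-1.77 ± 0.51, adjusted p = 0.0035, edgeR) rests on 1 library of each organ: without spleen *Wt* 2 the log2 fold change was 8.87, and without lung *Wt* 1 it was -10.64. The 5 lung epithelial markers summed to 251 to 254 CPM in lung *Wt*, 360 to 397 in lung KO and 0 to 0.65 in the spleen. *Sftpc* carried the sum and was higher in lung KO (251 and 281 CPM) than in lung *Wt* (152 and 155), while *Scgb1a1* was lower in lung KO (60.2 and 63.8) than in lung *Wt* (87.1 and 83.3). The 4 endothelial markers summed to 73.4 to 82.5 CPM in lung *Wt*, 103 to 106 in lung KO and 64.8 to 74.8 in the spleen. *Pecam1* carried the sum and was the only marker of the 4 read in the spleen. It was higher in lung KO (80.1 and 78.1 CPM) than in lung *Wt* (60.6 and 57.4), as was *Cldn5* (11.8 and 12.2 against 6.45 and 2.59). *Cdh5* was lower in lung KO (4.70 and 7.74 against 9.43 and 8.53), and *Tek* overlapped. Erythroid markers summed to 24.7 to 27.7 CPM in lung *Wt*, 49.4 to 53.2 in lung KO and 0.688 to 1.05 in the spleen, and the part of any of these cells in the differences between organs was not tested.

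Substrains of C57BL/6 differ at a few genes, and 5 of 8 such genes examined were counted. *Nnt*, which is partly deleted in one substrain, was read in all 8 libraries, at 12.0 and 9.83 CPM (*Wt*) against 38.2 and 36.7 (KO) in the lung, and at 23.7 and 28.9 against 29.98 and 25.5 in the spleen. *Wdfy1* was at 73.6 and 66.7 CPM (*Wt*) against 40.4 and 38.4 (KO) in the lung, and at 26.7 and 34.4 against 28.0 and 36.0 in the spleen. Neither separated the genotypes in both organs. *Cyfip2* did, at 297 and 300 CPM (*Wt*) against 274 and 287 (KO) in the lung. In spleen it was at 257 and 250 against 222 and 234. *Fgfbp3*, on 4 to 30 reads, was higher in lung KO (3.27 and 2.85 CPM against 1.99 and 1.81). It was lower in spleen KO (1.30 and 0.803 against 4.24 and 3.50). *Ide* overlapped in lung and was lower in spleen KO (170 and 174 against 216 and 214). A count of a gene does not show which substrain's sequence was read, and the part of substrain was not tested.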

How the data were processed

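Counts were deposited by the authors as raw reads per gene symbol, 1 file for each of the 8 libraries, without normalization. The authors aligned reads of 50 bases to mm10 (GRCm38) with HISAT2 and counted them with HTSeq; the submitters' processing notes name HISAT2 2.1.0 and HTSeq 0.11.1. The strand setting is not given in the sources used here, and multi-aligned reads, 29.7% to 33.2% of aligned reads, were not counted on genes. Categories of uncounted reads stayed out of library totals.

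The 9 genes, and the lists of relatives and markers, were chosen with earlier results of these data known, and the parents and other copies of the retrocopies were added after their values were seen. So were *Crot*, *Colec12*, *Abhd3*, *Tgfb1i1*, *Itsn1*, *Ddx4*, *Tex11*, *Ston1* and other genes named for single values. The other genes named are the neighbours and relatives that passed in both organs, the 5 leading genes of the same pattern, and *Ccl5*; not all are printed.

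A single edgeR 4.0.16 model (R 4.3.3) held all 8 libraries and estimated 4 group means, after filterByExpr (12595 genes, the 9 included) and TMM scaling (factors 0.954 to 1.03). Groups were compared by the quasi-likelihood F test at an adjusted p of 0.05, with the Benjamini-Hochberg method applied across the 12595 genes. The common biological coefficient of variation was 2.50%, so small differences passed. Ratios carry exact conditional Poisson intervals and shares exact binomial (Clopper-Pearson) intervals at 95%. With no read in a group, a ratio was taken against 3 reads over its summed libraries and is a lower bound. Intervals and floors cover counting error only. Windows and alignments used GENCODE transcripts of GRCm38. Alternatives were DESeq2 1.42.0, other scalings and filters, a fit of 4 libraries, the replicate block, 5 neighbours a side, other limits of the pattern, and leaving out each library. The fit was tested on simulated counts.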

Additional observations from a re-analysis of the deposited data

Results flagged for a closer look

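Of 51 neighbours, relatives and parents that passed edgeR's test in both organs, 33 moved in opposite directions in lung and spleen with a difference between organs that passed too. Over all genes, 3402 of the 4367 that passed in both organs had opposite directions. The values are the log2 KO effect in lung minus that in spleen. Among the parents of the retrocopies, it was -0.78 for *Tma7* and -0.87 for *Myl6*. For neighbours of *Tbc1d4*, it was -0.69 for *Commd6*, -0.89 for *Uchl3* and -1.34 for *Kctd12*. Over neighbours of *Ston2*, it was -1.88 for *Cep128*, -0.76 for *Gm6863* and 2.24 for *Galc*. Among neighbours of *Napb*, it was -0.92 for *Cst3* and -0.59 for *Zfp120*. For neighbours of *Tex15*, it was -0.56 for *Ubxn8* and 1.29 for *Gsr*. Over neighbours of *Rnase4*, it was 1.10 for *Apex1* and 1.10 for *Mettl17*. Among partners of *Tbc1d4*, it was 1.21 for *Akt1*, 1.41 for *Akt2*, 1.29 for *Slc2a1*, 1.11 for *Slc2a3*, 0.76 for *Rab10* and -0.67 for *Rab14*. For relatives of *Napb*, it was 0.43 for *Napa*, 0.91 for *Nsf*, -0.78 for *Stx4a*, -0.57 for *Stx7*, -0.98 for *Stx8*, 1.65 for *Stx11*, 1.55 for *Stxbp2*, 3.01 for *Vamp2*, -1.09 for *Vamp8* and -0.56 for *Vti1b*. Over partners of *Ston2*, it was -0.46 for *Cltc*, 1.16 for *Dnm2* and 0.46 for *Syt11*. The 9 genes themselves are not among these, and no explanation was tested.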

How the results depend on the processing

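DESeq2 in place of edgeR called 23 neighbours of the 9 genes in lung and 20 in spleen (edgeR: 36 and 37). Of the genes counted in KO it called 0 between organs (0 of 6 at an unadjusted p under 0.05, edgeR 3), and of those counted in *Wt* 1 (edgeR 3). Leaving out 1 library gave 0 to 2 called genes of the 6 counted in KO (1 without lung KO 1, 0 without lung KO 2 with 1 at an unadjusted p under 0.05, 1 without spleen KO 2), 27 to 37 neighbours in lung and 26 to 37 in spleen. *Gm5526* reversed without spleen *Wt* 2, at 8.87, and ranged down to -10.64. The KO-counted genes with the same pattern numbered 17, 4 with at least 100 summed reads, and 4 to 23 with 1 library left out, 4 being without spleen KO 2, the deepest library. Those counted in *Wt* numbered 1, 3 at a ratio of 5, 0 with at least 100 reads, and 0 to 3 with 1 library left out: 0 without lung *Wt* 1 or spleen *Wt* 2, 3 without lung KO 1, and 2 without lung KO 2, spleen *Wt* 1 or spleen KO 2. The cause of these shifts was not tested. No member had 10 reads in every library, so that filter gave no value for them.

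Replicate numbers are shared by the groups but nothing says that they pair libraries. Deviations of equally numbered libraries correlated at -0.01 in lung and 0.17 in spleen between genotypes, over 5103 genes. With replicate number as a block, 35 neighbours passed in lung and 37 in spleen, 28 relatives in each, and 2 of 6 and 3 of 3 members between organs, so no call on the 9 genes was lost and no count moved by over 1.5 times.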
